A study of Mus musculus with 5 samples.

Results

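The 28 genes described here make or control cholesterol: 18 enzymes that lead from acetyl-CoA to cholesterol, 5 genes of the SREBP control system, and 5 genes that move cholesterol within or out of the cell. They were taken by gene name from the mouse expression arrays, on which the enzyme gene Msmo1 stands under its older name Sc4mol. All 28 were on the array, with 37 probes, and all 28 were well above background on each of the 5 arrays, among 36492 genes and unnamed features in all.

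RNA came from cells sorted from muscle of mdx mice, a model of Duchenne muscular dystrophy, on the C57BL/6 strain. Sca1+ interstitial cells came from mice given TSA (trichostatin A, which blocks histone deacetylase enzymes) by intraperitoneal injection at 0.6 mg/kg for 45 days (2 arrays). MuSC, the muscle stem cells, came from vehicle-treated mdx mice (1 array), and the third group was Sca1+ interstitial cells from vehicle-treated mdx mice (2 arrays). All 3 groups therefore carried the dystrophic mutation, and no MuSC array with TSA and no array of healthy muscle was part of these samples. Per the labels, both cell types were gated as CD34+ and a7-integrin+ and differed in Sca1, and neither the age of the mice nor the number of animals behind an array was given. Nothing in the labels ties replicates to separate animals, and the p-values therefore reflect array-to-array spread, which may be technical.

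The levels below are log2 of an array's processed signal minus log2 of that array's 75th percentile signal, so a level of 0 lies at that percentile, and levels of different genes are not compared. Differences were tested with limma over all 5 arrays, two-sided, with Benjamini-Hochberg adjustment over 26140 genes and a threshold of 0.05, and the error beside a difference is the model's standard error. The 75th percentile signal was 326 and 452 on the TSA arrays, 240 on the MuSC array, and 235 and 165 on the Sca1+ vehicle arrays. Between 58.5% and 66.9% of spots were well above background. Precision is limited by how few arrays there were.

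The labelled cell types were checked against their markers. Ly6a, which encodes Sca1, stood at 5.89 and 5.71 on the TSA arrays, at 1.46 on the MuSC array, and at 6.46 and 6.59 on the Sca1+ vehicle arrays. Itga7, which encodes the a7-integrin that the labels give for both gates, stood at 4.53 and 4.59 with TSA, at 7.02 in MuSC, and at 1.35 and 1.09 in Sca1+ vehicle cells. Markers of other cell types differed between the groups. Of 12 myogenic markers 11 rose with TSA, and their summed signal, in multiples of the 75th percentile, was 50.02 and 56.3 on the TSA arrays, 330 on the MuSC array, and 4.53 and 4.40 on the vehicle arrays. All 10 fibroadipogenic markers had negative differences with TSA (median -0.86), and 1 of them passed the test. Their sums were 1732 and 2084 in TSA cells, 313 in MuSC, and 3400 and 4743 in Sca1+ vehicle cells. The TSA arrays also carried higher signal of smooth muscle markers (8 of 9 rose) and Schwann cell markers (7 of 10). Mast cell markers (5 of 6) and erythroid markers (3 of 3 tested) rose as well. Of the mast cell markers, Cma1 and Fcer1a were well above background on the TSA arrays only, and Cpa3 on these and vehicle replicate 2. Calcr of the myogenic list and Myocd and Lmod1 of the smooth muscle list were so on both TSA arrays and neither vehicle array. Such markers passed the filter through groups where they were high, so their calls add no support. Des stands on both the myogenic and the smooth muscle list. Of all genes tested, 2.71% were called higher with TSA and 0.268% lower. In this comparison 0 of 11 macrophage markers and 0 of 6 adipocyte markers passed the test, although 9 and 5 of them had positive differences. Macrophage sums were 28.4 and 26.8 with TSA, against 26.3 and 37.6 with vehicle. Csf1r, the brightest of these markers, weighed most in them and stood at 3.82 and 3.82, against 4.04 and 4.87. The median difference of the 11 macrophage markers was 0.60. Adipocyte sums were 169.4 and 199.1 with TSA, against 93.98 and 100.5 with vehicle. Nearly all of these sums came from Fabp4, at 7.39 and 7.62 with TSA, against 6.53 and 6.62 with vehicle. The other adipocyte markers differed by -0.94 (Lep) to 1.02 (Adipoq). Of these, Adipoq, Plin1 and Cidec were not well above background on every array. In such bulk samples, a change in the share of a cell type and a change of RNA per cell cannot be told apart.

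Cholesterol synthesis starts with the mevalonate pathway, in which acetyl-CoA is built up to farnesyl diphosphate. Squalene synthase, squalene epoxidase and lanosterol synthase then form the first sterol, lanosterol, and a set of enzymes of the endoplasmic reticulum trims and reduces it to cholesterol. When membrane cholesterol is low, the escort protein Scap carries the SREBP transcription factors to the Golgi for cleavage, and the cleaved factors switch on the enzyme genes. Insig proteins hold Scap back in the endoplasmic reticulum when sterols are plentiful. Excess cholesterol leaves the cell through the ABC transporters Abca1 and Abcg1, whose genes are driven by the oxysterol-sensing LXR receptors. Myoblasts and satellite cells use this pathway for membranes as they divide and fuse.

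The regulatory letters of the pathway are shown for 6 members on which the comparisons below turn, since SREBP factors bind sterol regulatory elements (SRE) together with the factors NF-Y and Sp1. The sequences are the 250 bases before the annotated gene start, 5′ to 3′ on the gene's strand, from RefSeq (build GRCm38.p6), and capitals mark matches on either strand to the SRE letters TCACNCCAC or to the NF-Y letters CCAAT, which read ATTGG on the opposite strand. Hmgcs1 is shown as the 1 member with an SRE match, Idi1, Lss and Insig1 for their differences with TSA, and Npc2 and Abca1 as the members that passed the test between cell types. They lie at chr13:119690101-119690350 (plus strand), chr13:8885356-8885605 (plus), chr10:76531355-76531604 (plus), chr5:28071162-28071411 (plus), chr12:84773113-84773362 (minus) and chr4:53159896-53160145 (minus).
Hmgcs1: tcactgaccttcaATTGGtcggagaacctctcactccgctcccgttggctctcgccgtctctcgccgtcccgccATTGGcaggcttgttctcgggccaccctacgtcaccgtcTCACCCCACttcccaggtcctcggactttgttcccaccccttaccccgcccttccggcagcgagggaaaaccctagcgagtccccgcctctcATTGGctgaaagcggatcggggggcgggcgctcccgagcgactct
Idi1: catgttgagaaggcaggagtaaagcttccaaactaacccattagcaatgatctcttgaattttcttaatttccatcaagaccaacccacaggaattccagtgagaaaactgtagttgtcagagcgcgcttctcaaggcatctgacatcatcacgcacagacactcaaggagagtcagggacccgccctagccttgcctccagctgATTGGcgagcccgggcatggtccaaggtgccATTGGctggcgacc
Lss: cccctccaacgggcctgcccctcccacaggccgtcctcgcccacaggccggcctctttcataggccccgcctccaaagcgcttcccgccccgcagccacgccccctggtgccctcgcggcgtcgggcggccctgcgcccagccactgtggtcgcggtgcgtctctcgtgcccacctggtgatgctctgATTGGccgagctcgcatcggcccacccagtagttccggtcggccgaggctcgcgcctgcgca
Insig1: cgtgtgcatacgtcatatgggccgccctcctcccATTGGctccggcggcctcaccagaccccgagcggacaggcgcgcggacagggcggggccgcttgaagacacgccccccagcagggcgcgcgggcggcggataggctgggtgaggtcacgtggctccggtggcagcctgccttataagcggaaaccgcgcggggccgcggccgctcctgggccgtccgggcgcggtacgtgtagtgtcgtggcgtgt
Npc2: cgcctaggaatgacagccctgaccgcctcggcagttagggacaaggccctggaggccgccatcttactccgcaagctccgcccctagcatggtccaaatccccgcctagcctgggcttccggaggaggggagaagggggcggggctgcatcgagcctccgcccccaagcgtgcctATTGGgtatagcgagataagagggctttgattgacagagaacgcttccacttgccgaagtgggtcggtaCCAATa
Abca1: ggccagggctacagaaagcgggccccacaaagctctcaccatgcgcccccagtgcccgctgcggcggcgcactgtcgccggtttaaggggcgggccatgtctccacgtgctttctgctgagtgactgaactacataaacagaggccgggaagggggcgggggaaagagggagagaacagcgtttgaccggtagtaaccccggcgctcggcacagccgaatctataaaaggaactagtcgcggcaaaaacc

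Matches were counted in the whole window of the RefSeq table, which runs from 250 bases before to 50 bases after the start. Of the 28 members 22 had an entry there, with 30 promoters. The SRE letters occurred in 1 of these 22 members, Hmgcs1, with the match starting at position -137 from the start. By promoter this was 1 of 30 (3.33%), against 1.24% of all 32851 promoters in the table. CCAAT was found in 19 of the 22 members and in 20 of the 30 promoters (66.7%), against 37.4% of all promoters. GGGCGG, the letters of an Sp1 site, stood in 21 of the 22 members and in 25 of the 30 promoters (83.3%), against 35.7% of all promoters. No match to one motif overlapped a match to another in the members' promoters. Among the enzymes read, 14 of 15 held CCAAT and 14 of 15 held GGGCGG. In the Abca1 promoter printed above neither the SRE letters nor CCAAT occurred, and the Insig1 promoter held 1 CCAAT match. Such matches describe letters and do not show binding, and a promoter without these exact letters is not shown to lack an SRE. The array probes lie, in the mm9 build of the array files, at chr5:28404246-28404305 for Insig1, chr3:88897549-88897608 for Fdps, chr12:86097947-86098006 for Npc2 and chr4:53043944-53044003 for Abca1, and their place within the transcript was not looked up here.

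**Figure D1:**
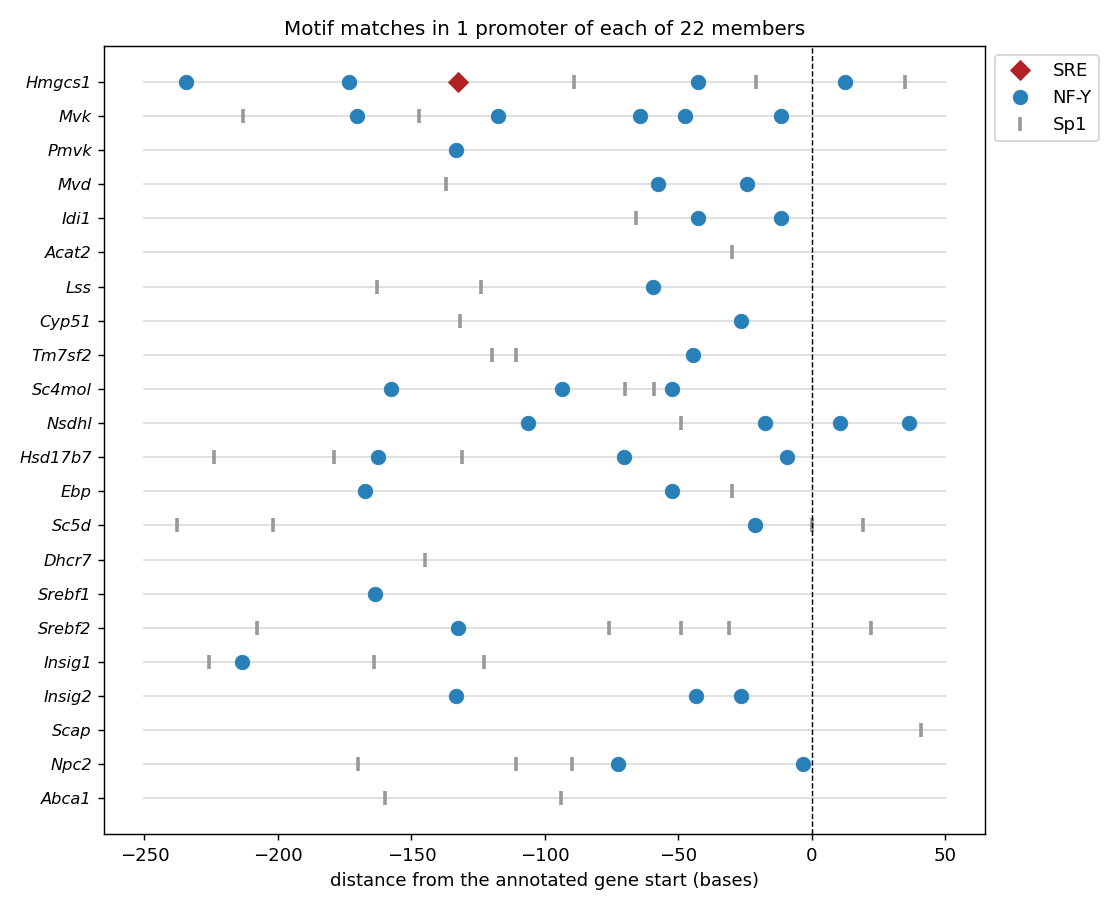
Positions of motif matches in 1 promoter of each of 22 members, as the distance of the match from the annotated gene start in bases (horizontal axis); diamonds are SRE matches, circles CCAAT (NF-Y) matches and ticks GGGCGG (Sp1) matches. Most rows hold circles and ticks, and 1 row, Hmgcs1, holds a diamond.

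The first comparison asked whether TSA treatment of dystrophic mice altered the genes in Sca1+ cells. None of the 28 passed the test: 0 were higher and 0 were lower in TSA cells, where 2.71% of all genes tested were called higher and 0.268% lower. At an unadjusted p under 0.05 there were 6 members (21.4%), 4 higher and 2 lower, against 23.2% of all genes. The median difference of the members was 0.03, with values between -0.89 and 0.64, while the median of all genes was -0.13. Both TSA arrays lay above both vehicle arrays for 8 members, all of them enzymes (28.6%, against 22.9% of all genes), and below both for 4 (14.3%, against 36.4%). A share of 28.6% is near its background, and a member's 95% confidence interval reached 0.388 to 0.728 to either side of its difference, so differences under that size were not resolved with 2 arrays per group.

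**Figure D2:**
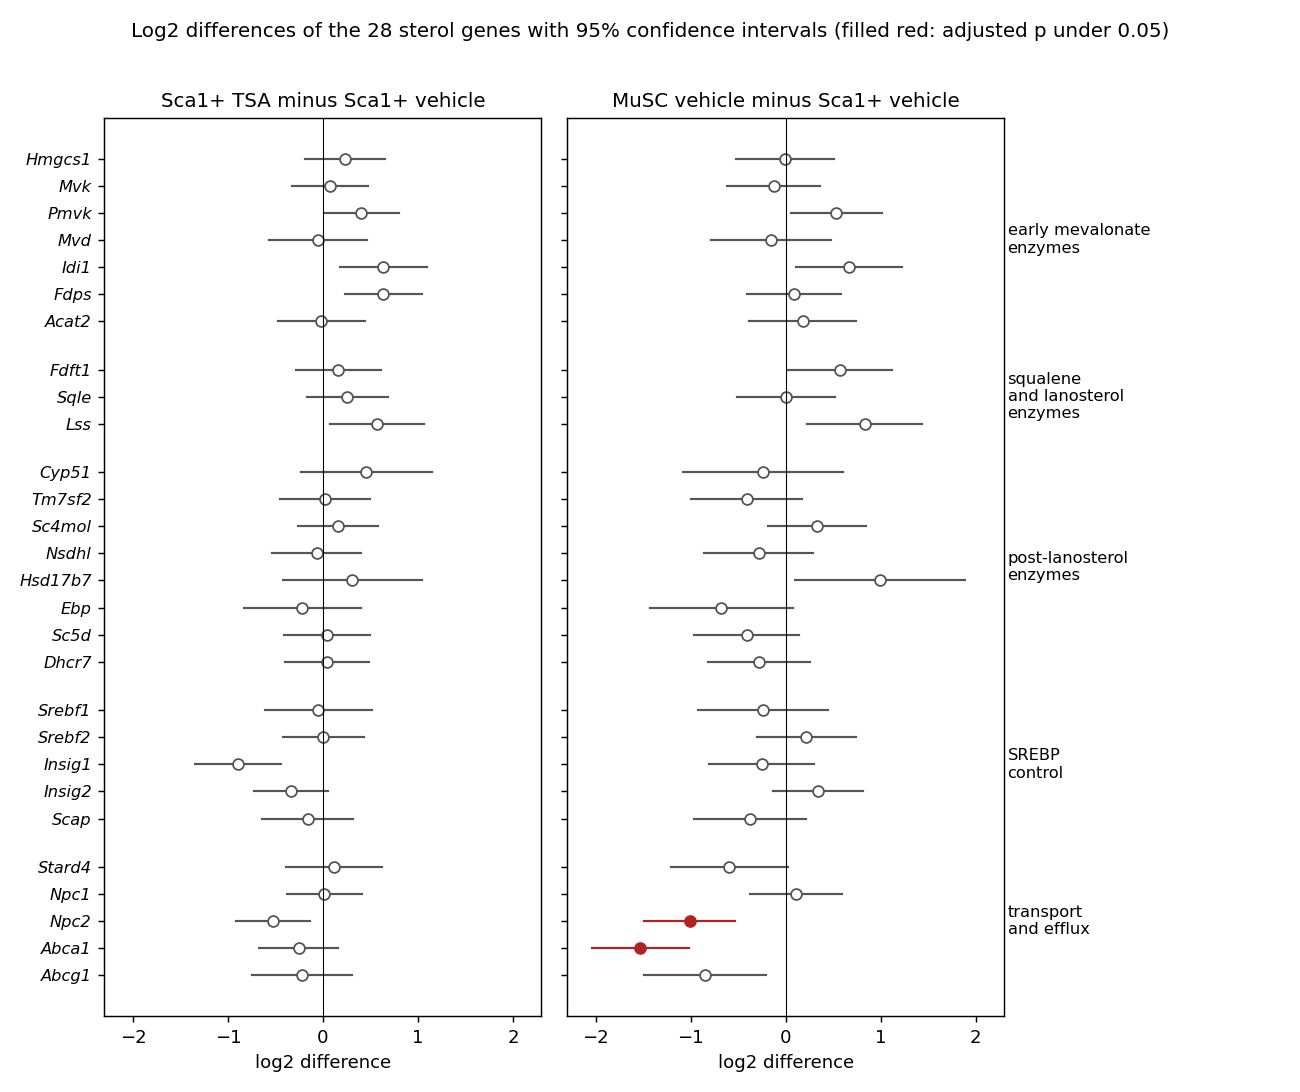
Log2 differences (horizontal axes) of the 28 genes, grouped by role, for Sca1+ TSA minus Sca1+ vehicle on the left and MuSC vehicle minus Sca1+ vehicle on the right; points are estimates, lines are 95% confidence intervals, and filled red points have an adjusted p under 0.05. All 28 points on the left are open, and Abca1 and Npc2 are filled on the right.

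Among the 7 enzymes of the early mevalonate pathway, 5 differences were positive and 2 negative, with a median of 0.23 (0.15 without replicate 2 of the TSA group). Fdps, which makes farnesyl diphosphate, stood at 3.88 and 3.99 in TSA cells, against 3.31 and 3.29 in vehicle cells. The groups did not overlap, and the difference of 0.64 ± 0.15 (95% confidence interval 0.24 to 1.04) had an unadjusted p of 0.011 and an adjusted p of 0.122. Idi1, the isomerase that supplies the building blocks of Fdps, stood at 2.09 and 2.32 in TSA cells and at 1.64 and 1.50 in vehicle cells. Its groups did not overlap either, with a difference of 0.63 ± 0.17 (adjusted p = 0.146). Pmvk, phosphomevalonate kinase, followed at 3.23 and 3.30 with TSA, against 2.86 and 2.86 with vehicle (0.40 ± 0.15, adjusted p = 0.209), and its other probe differed by 0.39. Hmgcs1, a synthase of the early pathway, stood at 3.88 and 4.04 in TSA cells and at 3.77 and 3.68 in vehicle cells. The difference was 0.23 ± 0.16 (adjusted p = 0.415). The other 3 lay near 0, at 0.07 for mevalonate kinase Mvk, -0.05 for mevalonate diphosphate decarboxylase Mvd and -0.02 for the thiolase Acat2, whose value is uncertain because the mouse has a close paralogue, Acat3.

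All 3 enzymes from farnesyl diphosphate to lanosterol had positive differences, with a median of 0.26. Lss, lanosterol synthase, stood at -1.23 and -1.56 in TSA cells, against -1.94 and -1.99 in vehicle cells. Both TSA values were the higher ones, and the difference of 0.57 ± 0.18 had an adjusted p of 0.186. With normexp background correction it was 0.13, and without replicate 1 or 2 of the TSA group it was 0.41 or 0.74. Sqle, squalene epoxidase, stood at 2.67 and 2.85 in TSA cells and at 2.51 and 2.50 in vehicle cells (0.26 ± 0.16, adjusted p = 0.372). For squalene synthase, Fdft1, the values overlapped, at 0.61 and 0.50 with TSA and 0.50 and 0.29 with vehicle, and its other probe had the opposite sign (-0.57).

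The 8 enzymes after lanosterol centred on 0.04, with 6 positive and 2 negative differences, and without any one array that median lay between 0.01 and 0.15. Cyp51, which removes a methyl group from lanosterol, had the largest difference of them, 0.46 ± 0.26 (adjusted p = 0.340), but it was 0.19 without replicate 1 and 0.72 without replicate 2 of the vehicle group, and 0.30 without replicate 2 of the TSA group. It stood at -0.95 and -0.63 in TSA cells, against -1.51 and -0.99 in vehicle cells, so that the groups nearly touched. The methyl oxidase Sc4mol differed by 0.16, with both TSA arrays above both vehicle arrays. The remaining 6, Hsd17b7 (0.31), Dhcr7 (0.04), Sc5d (0.04), Tm7sf2 (0.02), Nsdhl (-0.07) and the isomerase Ebp (-0.22), had overlapping groups. The second probe of Tm7sf2 and that of Mvk differed in sign from the first.

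Of the 5 control genes, 4 had a negative difference, where only 38.6% of all genes had a positive one. Their median of -0.16 lay between -0.28 and -0.06 when any one array was left out. Insig1, the sterol-regulated anchor of Scap and itself a known SREBP target, had the largest TSA difference of all 28 members. It stood at -2.16 and -1.91 in TSA cells, against -1.17 and -1.11 in vehicle cells. The groups lay clearly apart, the difference was -0.89 ± 0.17 (95% confidence interval -1.34 to -0.44, 1.86-fold lower in TSA cells), and its unadjusted p was 0.005, but the adjusted p of 0.087 did not pass. Insig2, the second anchor, stood at 2.06 and 2.04 in TSA cells, against 2.38 and 2.40 in vehicle cells, a difference of -0.34 ± 0.14 (adjusted p = 0.251), and its other probe differed by -0.41. The TSA arrays were thus below the vehicle arrays for both Insig genes, as for 36.4% of all genes. The SREBP genes themselves overlapped between groups, with differences of 0.01 for Srebf2 and -0.05 for Srebf1. A second Srebf2 probe differed by 0.55. Scap differed by -0.16 ± 0.18 (adjusted p = 0.602).

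In the transport group the median was -0.22, but -0.07 without replicate 1 of the vehicle group, -0.11 without replicate 2 of the TSA group and -0.04 with normexp correction. Npc2, the lysosomal protein that hands cholesterol to Npc1, stood at 4.09 and 4.09 in TSA cells, against 4.65 and 4.59 in vehicle cells. The 4 arrays did not overlap, with a difference of -0.53 ± 0.15 (95% confidence interval -0.92 to -0.13, adjusted p = 0.153). Abca1, which exports cholesterol to apolipoprotein, stood at 1.33 and 1.46 with TSA and at 1.71 and 1.60 with vehicle (-0.25 ± 0.15, adjusted p = 0.370). The related exporter Abcg1 (-0.22), the membrane protein Npc1 (0.01) and the sterol carrier Stard4 (0.12) had overlapping groups.

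Taking all 18 enzymes, 14 differences were positive, where 38.6% of all genes had a positive one, and their median was 0.16. These are counts of genes measured on the same 4 arrays, and they describe these arrays only. The number of positive enzymes was 12 with normexp correction and also with the mean of all probes, and 15 with quantile normalization. Without replicate 1 of the vehicle group it was 17, with a median of 0.21, and without replicate 2 it was 14, with a median of 0.07. Cell cycle markers, of which 4 of 8 rose with TSA, had summed signals of 40.4 and 44.6 in TSA cells, 67.1 in MuSC, and 23.9 and 22.9 in Sca1+ vehicle cells. The part of these and of the myogenic, smooth muscle and Schwann cell markers above in the enzymes' values was not tested.

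Each slide held 1 TSA and 1 vehicle array, so the difference could be read slide by slide. It had the same sign on both slides for 18 of the 28 members (64.3%), 11 positive and 7 negative, against 76.1% of all genes. Insig1 differed by -0.98 on slide 1 and -0.80 on slide 2. For Fdps the slides gave 0.57 and 0.70, for Idi1 0.45 and 0.82, for Lss 0.71 and 0.43, for Pmvk 0.37 and 0.44, and for Npc2 -0.56 and -0.49. The other 10 members changed sign between the slides, and their values lay near 0, the farthest being -0.26 for Srebf1 on slide 2.

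**Figure D3:**
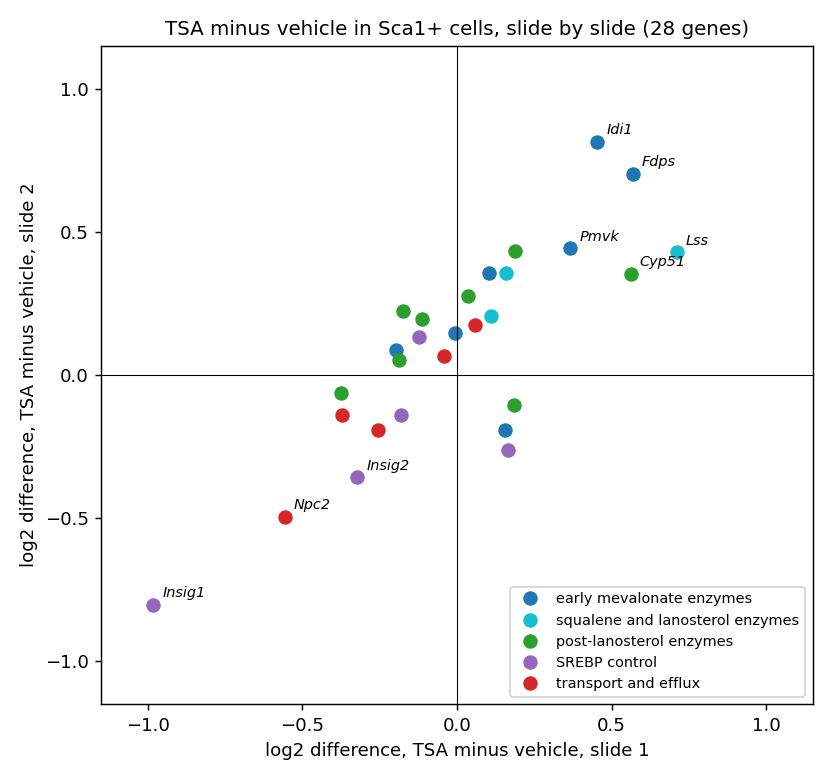
TSA minus vehicle log2 differences on slide 1 (horizontal axis) and slide 2 (vertical axis) for the 28 genes, coloured by role. Fdps, Idi1, Lss, Pmvk and Cyp51 sit in the upper right, Insig1, Npc2 and Insig2 in the lower left, and the remaining genes lie closer to 0.

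The second comparison set MuSC against Sca1+ cells, both from vehicle-treated mice, and asks how the genes differ between the cell types. With 1 MuSC array, this array is assumed to vary like the others. No member was called higher, where 10.5% of all genes were, and 2 of 28 were called lower, where 11.7% of all genes were: Abca1 and Npc2. At an unadjusted p under 0.05 there were 8 members (28.6%), 5 higher and 3 lower, against 35.8% of all genes. The median of the members was -0.14 and that of all genes -0.04. The MuSC array lay above all 4 Sca1+ arrays for 9 members (32.1%, against 33.7% of all genes) and below all 4 for 11 (39.3%, against 28.5%).

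Abca1 fell to 0.12 on the MuSC array, against 1.71 and 1.60 in Sca1+ vehicle cells. With TSA the Sca1+ cells stood at 1.33 and 1.46, so all 4 Sca1+ arrays lay above the MuSC array. The difference was -1.53 ± 0.19, a 2.90-fold lower signal in MuSC (95% confidence interval -2.04 to -1.02, adjusted p = 0.010), and it passed the test under each of the 13 alternatives run for this comparison. Npc2 stood at 3.60 in MuSC, against 4.65 and 4.59 in Sca1+ vehicle cells, a difference of -1.01 ± 0.18 or a 2.02-fold lower signal (adjusted p = 0.024). It missed the threshold without any one of the 4 Sca1+ arrays, with values of -1.04 to -0.98. On slide 1, which held the MuSC array, the differences were -1.59 for Abca1 and -1.04 for Npc2.

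Abcg1 stood at 1.43 in MuSC, against 2.43 and 2.13 in Sca1+ vehicle cells, and its difference of -0.85 ± 0.24 did not pass (adjusted p = 0.077). With slide as a replicate block it was -0.98 and passed (adjusted p = 0.041). Stard4 followed at -0.60 ± 0.23 (adjusted p = 0.148), and Npc1 was the 1 transport gene with a positive difference (0.11). The MuSC array was thus below all 4 Sca1+ arrays for 4 of the 5 transport genes, as for 28.5% of all genes. In the same comparison 10 of 10 fibroadipogenic markers fell (sums of 313 in MuSC, 3400 and 4743 in Sca1+ vehicle cells). Of 8 endothelial markers 6 fell (sums of 52.0 in MuSC, 81.9 and 115.8 in Sca1+ vehicle cells). Vwf, also on that list, was called higher, at 2.73 in MuSC, against 1.96 and 1.86. Of 11 macrophage markers 9 had positive differences, with 1 called higher and a median of 0.75. The macrophage sums, 27.9 in MuSC and 26.3 and 37.6 in Sca1+ vehicle cells, did not show this, as Csf1r weighed most in them. Csf1r stood at 3.69 in MuSC, against 4.04 and 4.87. Other markers rose: 9 of 9 smooth muscle markers were higher (sums of 1546 in MuSC, 33.15 and 37.41 in Sca1+ vehicle cells). Also higher were 9 of 10 Schwann cell markers (183.4, against 41.7 and 47.73), 12 of 12 myogenic markers and 7 of 8 cell cycle markers. Of all genes, 10.5% were called higher and 11.7% lower. Calcr, Myf5, Myocd and Lmod1 were not well above background on either Sca1+ vehicle array. The part of any of these markers in the transport genes' values was not tested.

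**Figure D4:**
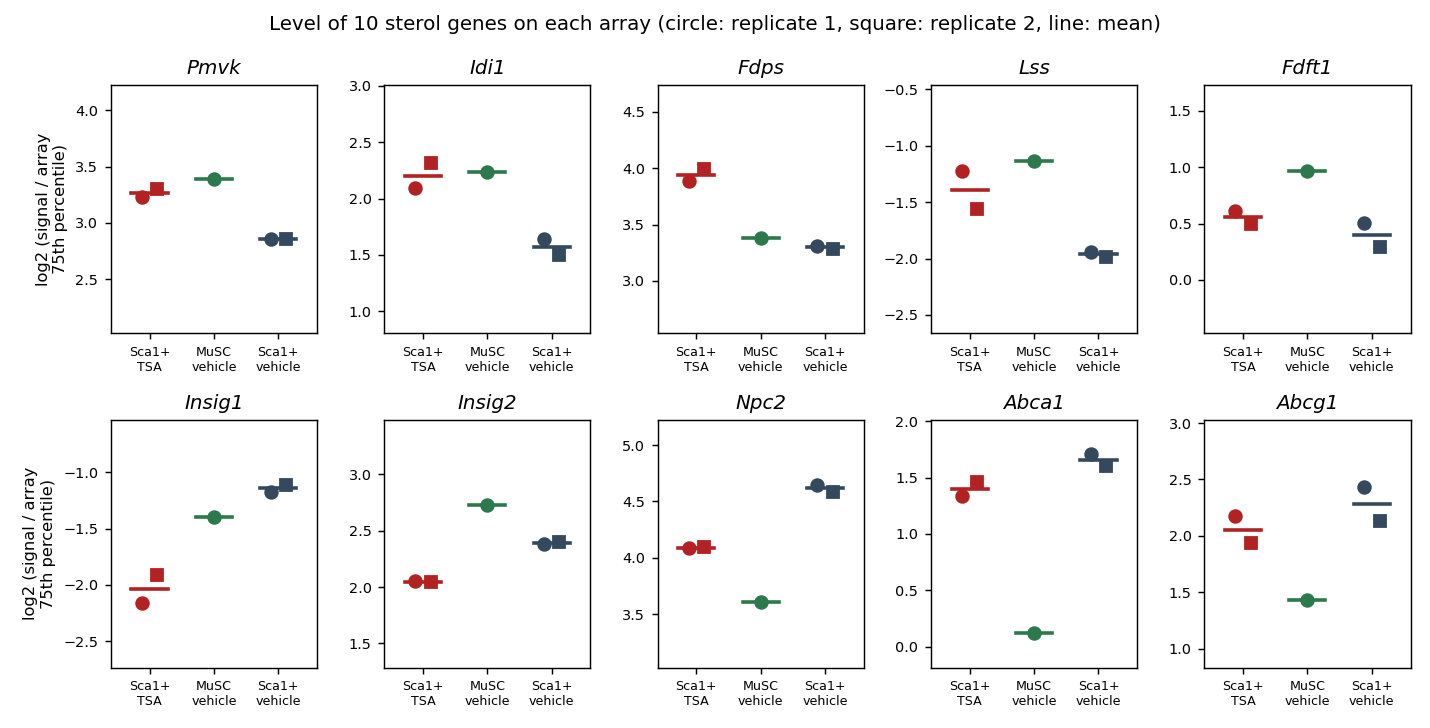
Level of 10 members on each array, as log2 of signal over the array's 75th percentile (vertical axes, each spanning the same range of log2 units), for Sca1+ TSA, MuSC vehicle and Sca1+ vehicle from left to right; circles are replicate 1, squares replicate 2 and lines group means. Abca1, Abcg1 and Npc2 are lowest in MuSC, Insig1 is lowest with TSA, and Fdps is highest with TSA.

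Enzyme genes fell on both sides of 0 in MuSC, with 9 positive and 9 negative differences, and none passed. Lss stood at -1.13 in MuSC, against -1.94 and -1.99 in Sca1+ vehicle cells (0.83 ± 0.23, adjusted p = 0.071). It was called with quantile normalization (0.84) and in the deposited table (0.86). Hsd17b7, a reductase of the late pathway, stood at -0.26 in MuSC, against -0.96 and -1.54 in Sca1+ vehicle cells (0.99 ± 0.33, adjusted p = 0.112), and its second probe differed by 0.60. Idi1 stood at 2.24 in MuSC, against 1.64 and 1.50 (0.67 ± 0.21, adjusted p = 0.097), and Pmvk at 3.39, against 2.86 and 2.86 (0.53 ± 0.18, adjusted p = 0.114). Fdps stood at 3.38 in MuSC, against 3.31 and 3.29 in Sca1+ vehicle cells (0.08 ± 0.18, 95% confidence interval -0.41 to 0.58).

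The 7 early mevalonate enzymes had a median of 0.08 (4 positive, 3 negative), the 3 enzymes up to lanosterol one of 0.57, which was 0.09 with the mean of all probes, and the 8 later enzymes one of -0.28. For 5 of these 8 (Dhcr7, Sc5d, Tm7sf2, Nsdhl and Ebp) the MuSC array lay below all 4 Sca1+ arrays, as for 28.5% of all genes, and over all 18 enzymes it lay below them for 6 and above them for 6. Ebp, a sterol isomerase, stood at 3.74 in MuSC, against 4.66 and 4.18 in Sca1+ vehicle cells, a difference of -0.68 ± 0.28 (adjusted p = 0.169) that was -0.44 without replicate 1 of the vehicle group. Dhcr7, which performs a last reduction to cholesterol, differed by -0.28, and Sc5d and Tm7sf2 by -0.41 each. Differences between these enzyme groups were not tested. Fdft1 had 0.57 ± 0.20 (adjusted p = 0.128) with the probe used and -0.38 with its other probe.

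Among the control genes no difference passed the test. Each 95% confidence interval included 0 but was wide, from -0.97 to 0.21 for Scap and from -0.14 to 0.82 for Insig2. Scap stood at 2.78 in MuSC, against 3.06 and 3.26 in Sca1+ vehicle cells (-0.38 ± 0.22, adjusted p = 0.289). Insig2 was at 2.73 in MuSC, against 2.38 and 2.40 (0.34 ± 0.18, adjusted p = 0.250), and its second probe differed by 0.61. Insig1 was at -1.40 in MuSC, against -1.17 and -1.11 (-0.25 ± 0.20, adjusted p = 0.438). The SREBP genes differed by 0.22 (Srebf2) and -0.24 (Srebf1), and a second Srebf2 probe differed by 0.48.

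Set directly against MuSC, TSA-treated Sca1+ cells had 1 of 28 members called higher (against 7.94% of all genes) and 0 called lower (against 4.82%). That member was Abca1, at 1.33 and 1.46 in TSA cells and 0.12 in MuSC (1.28 ± 0.19, adjusted p = 0.025). Insig2 was lower in TSA cells on both arrays, at 2.06 and 2.04, against 2.73 in MuSC (-0.68 ± 0.18, adjusted p = 0.087), and Insig1 stood at -2.16 and -1.91 in TSA cells, against -1.40 in MuSC (-0.64 ± 0.20, adjusted p = 0.132). Idi1 and Pmvk had similar values, with differences of -0.03 ± 0.21 and -0.13 ± 0.18. Fdps was 0.55 ± 0.18 higher in TSA cells without passing (adjusted p = 0.140). This comparison shares its arrays with both others.

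Around the 28 genes, a list of 59 other genes of sterol and lipid metabolism was read, of which 58 were tested. With TSA 2 were called higher (3.45%, against 2.71% of all genes) and 0 lower (against 0.268%). The 2 include Lrp8, which passed the filter through the TSA arrays alone, so its call adds no support to this share. Scarb1, the receptor that takes up cholesterol from high-density lipoprotein, stood at 3.45 and 3.50 in TSA cells, against 2.43 and 2.40 in vehicle cells. The difference was 1.06 ± 0.15 (adjusted p = 0.049), with the groups far apart, and its other probe differed by 0.95. The call was lost with slide as a replicate block (adjusted p = 0.051) and without any one of the 4 Sca1+ arrays, while the difference stayed between 1.03 and 1.09. Lrp8, a lipoprotein receptor, was called higher as well (adjusted p = 0.038), but it was well above background on the TSA arrays only and close to it there, so no fold is given, and its other probe was not above background on any array. With normexp correction the Lrp8 difference turned to -0.37. Vldlr, a related receptor, stood at 2.58 and 2.62 in TSA cells, against 3.56 and 3.35 in vehicle cells (-0.85 ± 0.16, adjusted p = 0.089). The list's median was -0.05, against -0.13 for all genes.

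In MuSC 2 of the 58 were called higher (3.45%, against 10.5% of all genes) and 10 lower (17.2%, against 11.7%). Lrp1 and Nr1h3 kept their calls under all 13 alternatives, and each of the other 10 lost its call under 4 to 8 alternatives, among them the fits without 1 or more of the single Sca1+ arrays. The higher ones were Pdss1 (1.05 ± 0.19) and Pdss2 (1.19 ± 0.18), the subunits of the enzyme that builds the isoprenoid tail of ubiquinone from products of the mevalonate pathway. Scarb1 was called lower in MuSC, at 1.43, against 2.43 and 2.40 in Sca1+ vehicle cells (-0.99 ± 0.18, adjusted p = 0.026). Lower too were the endocytic receptor Lrp1 (-2.88 ± 0.22), the LXR gene Nr1h3 (-1.55 ± 0.19), the LXR-driven ubiquitin ligase Mylip (-0.91 ± 0.18) and the sterol carrier Stard5 (-1.46 ± 0.22). Of 10 lipogenic target genes of SREBP, 3 passed as lower (against 11.7% of all genes). They were the desaturases Scd1 (-1.07 ± 0.20), Fads1 (-1.22 ± 0.24) and Fads2 (-1.40 ± 0.24), although a second Fads2 probe differed by -0.08. Another 4 of the 10 had positive differences without passing: Gpam (0.93), Elovl6 (0.87), Fasn (0.63) and Scd2 (0.54). Fads1 lost its call without either TSA array or vehicle replicate 1 (adjusted p up to 0.082), and Fads2 without either vehicle array (up to 0.082) and with the mean of its probes (-0.74, adjusted p = 0.087). Aacs, which activates acetoacetate, was called at -0.78 ± 0.18 (adjusted p = 0.046), but not with slide as a replicate block (adjusted p = 0.071) or without any one of the 4 Sca1+ arrays (0.105 to 0.124). Osbpl6, an oxysterol-binding protein, was not well above background in MuSC. Counted in the main processing against the lowest signal well above background, it was at least 2.16-fold lower there. With normexp correction its difference was only -0.39 and its call was lost (adjusted p = 0.376). That bound therefore depends on the background correction. The median of the list in MuSC was -0.11, against -0.04 for all genes.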

How the data were processed

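RNA from 5 samples was hybridised to 1-colour arrays. Per the file headers, spot intensities came from Agilent Feature Extraction 10.7.3.1, whose processed signal is background-subtracted and detrended within an array. The deposited value table is in log2, with equal column medians of about 4.68 and a rank correlation of 1 with the scanner values, and was an alternative. Control and outlier spots (0.196% to 0.334%) were dropped, each array was centred on its 75th percentile, spots of a probe were averaged, and the probe with the highest mean stood for its gene. Kept were 26140 genes that every array of some group measured well above background. RefSeq accessions named 26413 of 55681 probes. Limma 3.58.1 in R 4.3.3 was fitted to 3 groups (residual degrees of freedom 2, prior 2.30) and tested on simulated data. Probe positions are in mm9, and no genome was used. Members, lists and tests were chosen with earlier results of these data known, and the rule was to describe all 28 members, array by array where one passed a test or differed most within its role. Same-numbered TSA and vehicle arrays shared a slide, and the replicate 1 arrays deviated from their group means with a correlation of 0.348 over 26140 genes. For normexp (offset 50) the median spot signal replaced the planned mean, which 1 slide's files hold and the other slide's do not. Promoter counts and figures were made with Python 3.11.15, pandas 2.3.3 and matplotlib 3.10.9.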

Additional observations from a re-analysis of the deposited data

How the results depend on the processing

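The results rest on 5 arrays, and 1 MuSC array carries no spread of its own. With TSA, normexp correction called 2 members higher, Fdps (0.74) and Idi1 (0.73), and 1 lower, Insig1 (-0.74), where 1253 of 26140 genes were higher and 5902 lower. An intensity trend called 1 higher (Fdps) and 1 lower (Npc2), where 1199 of 26140 genes were higher and 475 lower. In MuSC, quantile normalization and the deposited table each called 1 higher (Lss), and the trend 2 (Idi1 and Pmvk). Without the filter on dim probes, or with only the groups compared, 1 was lower (Abca1), as without any single Sca1+ array (1 to 1). Leaving out single arrays put the members' median between -0.14 and -0.041. Against MuSC, TSA cells had 0 members called higher without the filter, with only the groups compared, and without any single Sca1+ array (0 to 0). The trend gave 2 higher (Abca1 and Fdps) and 1 lower (Insig2), where 2657 of 26137 genes were higher and 2137 lower. With slide as a replicate block, 0 members were called in either direction with TSA, 0 higher and 3 lower in MuSC, and 1 higher and 0 lower against MuSC. Over all 26137 genes the block called 2723 higher and 3411 lower in MuSC, and 2175 higher and 1323 lower against MuSC. Lrp8 turned to -0.37 with normexp. Over all genes with TSA, 708 higher and 70 lower became 1253 and 5902 (normexp), 1199 and 475 (trend), 933 and 166 (block), 277 and 2 (no filter), 319 and 2 or 256 and 2 (without vehicle replicate 1 or 2), and 0 and 0 without either TSA array, where 4917 and 3101 genes had an unadjusted p under 0.05. Normexp moved the median of all genes from -0.13 to -0.25. Of the members' differences under the alternatives, 23 of 392 (TSA), 9 of 364 (MuSC) and 5 of 364 (TSA against MuSC) changed sign. The causes were not tested.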
